A study of Mus musculus with 7 samples.

Results

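The proteasome subunit genes were followed in single germinal vesicle (GV) oocytes of mice in which Setd1b, the gene for a histone H3 lysine 4 methyltransferase, had been deleted during oocyte growth. Genes were taken from a deposited table of 33437 oocyte transcripts when the transcript lay on the strand of the gene assigned to it and that gene's symbol began with Psma, Psmb, Psmc, Psmd, Psme, Psmf or Psmg followed by a number. The rule found 41 transcripts of 40 genes, of which 38 are protein-coding and 2 are pseudogenes, and where a gene had more than 1 transcript the one with the highest mean was kept. The rule uses symbols and strands, and the level only to choose between transcripts of 1 gene.

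The proteasome is the large protease that degrades proteins tagged with ubiquitin. Its 20S core is a barrel of alpha rings, which form the gate, and beta rings, in which Psmb5, Psmb6 and Psmb7 encode the catalytic subunits. The 19S regulatory particle caps the barrel: its ATPases (the Psmc genes) unfold the substrate, and its non-ATPase subunits (most Psmd genes) build the lid and scaffold and include the receptors and the deubiquitinase for ubiquitin chains. In oocytes the proteasome is known for the timed destruction of cell cycle regulators during meiosis and of maternal proteins after fertilisation.

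The Setd1b cKO group held 4 oocytes of the genotype Setd1b floxed/floxed with Gdf9-Cre, a transgene that recombines in oocytes from early folliculogenesis onwards, and the Setd1b WT group held 3 oocytes of floxed/floxed females without Cre. All came from 21-day-old C57BL6 females, and both groups carried the floxed allele. Each library is 1 oocyte, and no source used here says which oocytes shared a mother, so the p-values measure only the spread between these oocytes. The study's description of the cross also counts oocytes with 1 deleted allele and Cre as WT, whereas the labels give the WT libraries as Cre negative. Values are RPM, in which read numbers are divided by library size, and thus a share of the RNA of an oocyte, so that a changed share and a changed amount per oocyte cannot be told apart.

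Depth ran from 8582493 to 12972366 mapped reads, so that 3 reads, the floor used here for a transcript without reads, were worth 0.231 to 0.350 RPM. That floor covers counting error only. The share of reads outside the transcripts of the table was 13.2 to 16.4% in the cKO oocytes and 9.57 to 9.90% in the WT oocytes, and its part in the results was not tested. Of 12 oocyte markers 11 were found in the table by symbol, the search used for all markers, and all 11 were expressed, with a summed level of 19217 to 20830 RPM in cKO and 22525 to 24582 RPM in WT oocytes. For granulosa cells, which surround the oocyte, 14 of 15 markers were found and summed to 122 to 288 RPM in cKO and 93.0 to 276 RPM in WT oocytes, with Amh, Foxl2 and Gatm at or under 0.174 RPM in every library, most of the sum from Serpine2 (43.0 to 213 RPM), Nr5a2 (32.5 to 50.8 RPM in cKO and 27.4 to 28.3 RPM in WT oocytes, without overlap) and Cyp19a1 (17.1 to 30.6 RPM), and none of the 7 tested called. Wt1, which was not tested, was also without overlap, at 0.099 to 0.494 RPM in cKO and 0 to 0.0936 RPM in WT oocytes. Its lowest cKO value and its highest WT value were each 1 read and differ only by depth. All its WT values lay under the floor of 3 reads. Inha, a further granulosa marker, averaged 8.07 RPM in cKO and 1.71 RPM in WT oocytes with overlap (limma adjusted p = 0.225). Of the leukocyte markers, 5 of 8 were found, with a summed level of 5.14 to 13.3 RPM in cKO and 2.47 to 4.77 RPM in WT oocytes, from Cd68 and Csf1r (0.165 to 0.522 RPM in cKO and 0.308 to 1.03 RPM in WT oocytes), while Lyz2, Tyrobp and Cd52 had no reads in any library. Cd68 was called higher in cKO oocytes (log2 fold change 1.36, limma adjusted p = 0.0435), and 1 of the 11 oocyte markers, Mos, was called lower (log2 fold change -1.34, limma adjusted p = 0.00581). The part of these markers in the results was not tested. The transcript of Setd1b, found by its position, measured 8.31, 16.7, 12.8 and 2.68 RPM in the cKO and 17.7, 16.3 and 8.61 RPM in the WT oocytes. These levels overlapped (log2 fold change -0.61, limma adjusted p = 0.533), so the level of this whole transcript, which does not single out the deleted part, does not separate the genotypes.

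None of the proteasome genes matched by symbol was called differentially expressed between cKO and WT oocytes. Calls needed both an adjusted p under 0.05 (limma, Benjamini-Hochberg) and more than a 2-fold difference. Of the 40 genes 35 were expressed at 1 RPM or more in at least 3 libraries and could be tested. None of the 35 was called higher and none lower, while 5.71% of all 18179 transcripts tested were called, 683 higher and 355 lower in cKO oocytes (458 and 531 after centring each library on its median transcript). Without the limit on the fold change, limma gave an adjusted p under 0.05 for 1 of the 35 genes, Psmb5, against 6.15% of all transcripts, and an unadjusted p under 0.05 for Psmb5 and Psmb4. The ranges of the cKO and WT libraries were apart for 3 of the 35 genes (8.57%), Psmb5 and Psmb4 (higher in cKO) and Psmg1 (lower in cKO), against 20.3% of all transcripts.

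**Figure D1:**
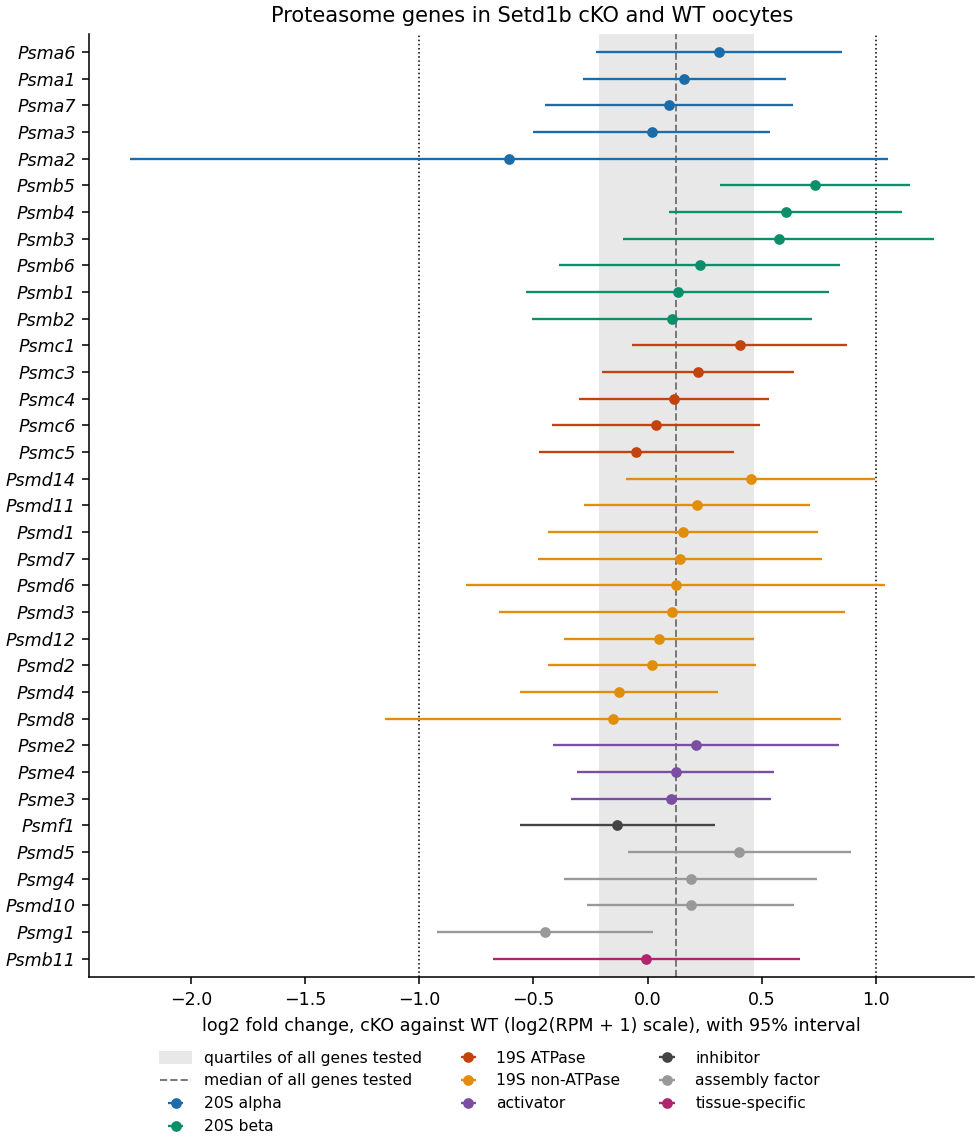
Log2 fold change of each of the 35 tested proteasome genes between 4 cKO and 3 WT oocytes (points, coloured by role) with its 95% interval (lines); the grey band spans the quartiles of all 18179 transcripts tested, the dashed line is their median and dotted lines mark 2-fold. The points of 28 genes lie above 0 and those of 7 genes below it (15 and 20 after centring each library on its median transcript), Psmb5 has the highest point, and Psma2 and Psmd8 have the widest intervals.

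The fold changes of the proteasome genes were small. The log2 fold change was above 0 for 28 of the 35 genes and below 0 for 7, but for 15 and 20 with libraries centred on their median transcript. The median was 0.12 (quartiles 0.03 and 0.22). Over all transcripts tested the median was also 0.12, with wider quartiles of -0.21 and 0.46, and over the 6849 transcripts with a mean of at least 16 RPM it was 0.03 (quartiles -0.26 and 0.29). With the centred libraries the median was -0.03 both for the proteasome genes and over all transcripts. For 29 of the 35 genes (82.9%) the 95% interval of the change lay within 2-fold in either direction, against 42.3% of all transcripts tested and 58.5% of those of at least 16 RPM. It lay within 1.5-fold for 10 genes. Of the 35 genes, 32 had a mean of at least 16 RPM, and the part of the level in these shares was not tested. The median standard error of a proteasome gene was 0.23 on the log2 scale.

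The promoters of Psmb5, Psmb4 and Psmg1 are shown because these were the tested genes whose libraries did not overlap between the genotypes. Each runs from 250 bases before to 50 bases after the RefSeq start of the gene (GRCm38.p6), on the gene's own strand. Psmb5 is at chr14:54617946-54618245, Psmb4 at chr3:94886909-94887208 and Psmg1 at chr16:95990911-95991210, all on the minus strand. Capitals mark matches, on either strand, to TGACNNNGC, the core of the antioxidant response element that NFE2L1 and NFE2L2 are known to bind at proteasome genes, to CCAAT, the box of NF-Y, or to CCGGAAG, an ETS factor motif.
Psmb5: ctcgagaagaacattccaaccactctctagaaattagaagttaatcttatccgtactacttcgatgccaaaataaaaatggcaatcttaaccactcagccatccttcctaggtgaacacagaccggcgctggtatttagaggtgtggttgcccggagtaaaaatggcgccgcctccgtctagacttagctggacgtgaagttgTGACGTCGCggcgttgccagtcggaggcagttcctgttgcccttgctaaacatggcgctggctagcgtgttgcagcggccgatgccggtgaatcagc
Psmb4: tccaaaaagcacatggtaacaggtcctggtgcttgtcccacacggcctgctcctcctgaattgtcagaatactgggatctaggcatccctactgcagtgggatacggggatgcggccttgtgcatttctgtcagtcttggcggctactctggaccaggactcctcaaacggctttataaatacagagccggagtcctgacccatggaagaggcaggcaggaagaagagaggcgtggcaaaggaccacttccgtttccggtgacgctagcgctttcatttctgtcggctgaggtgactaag
Psmg1: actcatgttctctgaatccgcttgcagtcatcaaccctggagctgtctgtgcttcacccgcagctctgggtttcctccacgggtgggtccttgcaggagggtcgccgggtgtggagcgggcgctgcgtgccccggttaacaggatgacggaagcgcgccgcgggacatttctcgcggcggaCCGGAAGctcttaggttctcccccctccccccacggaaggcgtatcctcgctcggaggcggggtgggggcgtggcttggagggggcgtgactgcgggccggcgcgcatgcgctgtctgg
The Psmb5 promoter holds TGACGTCGC, which begins 47 bases before the start site, and the Psmg1 promoter holds CCGGAAG, which begins 69 bases before it. The Psmb4 promoter holds none of these letters.

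Of the tested genes 23 had a RefSeq promoter whose start lay within 1000 bases of the start of the measured transcript. TGACNNNGC was in 5 of these 23 promoters (21.7%), against 12.4% of all 32851 promoters of the same length, and the other holders beside Psmb5 were Psmb6, Psmc6, Psmd12 and Psme4. CCAAT was in 7 (30.4%), against 37.4% of all, and CCGGAAG was in 8 (34.8%), against 8.86% of all. Among promoters with a CpG observed over expected ratio of at least 0.6, which were 19 of the 23 and 11765 of all, TGACNNNGC was in 5 of the 19 against 14.7%, CCAAT in 5 of the 19 against 35.7%, and CCGGAAG in 8 of the 19 against 18.7%. The proteasome promoters were rich in CpG, with a median ratio of 0.763 against 0.384 over all promoters and a median GC content of 59.3% against 52.7%. A match is a description of the letters and not evidence of binding.

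Psmb5, the catalytic subunit that cuts after hydrophobic residues, had the largest fold change of the 35 tested genes matched by symbol. It measured 80.9, 90.6, 78.6 and 90.5 RPM in the cKO oocytes and 50.9, 48.5 and 52.9 RPM in the WT oocytes. Every cKO oocyte was above every WT oocyte, and the spread within each genotype was narrow (85.2 ± 6.31 RPM, SD, n = 4, and 50.7 ± 2.19 RPM, SD, n = 3). The log2 fold change was 0.73 with a standard error of 0.19, a 1.66-fold difference (limma adjusted p = 0.0455). The 95% interval of the fold ran from 1.25 to 2.22, so a 2-fold change lies inside it. The call at an adjusted p under 0.05 was lost when any 1 of the 7 oocytes was left out, with adjusted p of 0.0501 to 0.172, although the log2 fold change stayed between 0.70 and 0.77. It was also lost, at an adjusted p of 0.112, after centring each library on its median transcript.

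Psmb4, a structural beta subunit, measured 64.6, 63.8, 53.8 and 49.4 RPM in cKO and 37.6, 47.9 and 29.2 RPM in WT oocytes. The genotypes did not overlap, but the lowest cKO oocyte was only slightly above the highest WT oocyte. The log2 fold change was 0.61 with a standard error of 0.23 (limma adjusted p = 0.155). Psmb3, another structural beta subunit, spread more widely, with 227, 157, 269 and 330 RPM in cKO and 131, 128 and 241 RPM in WT oocytes. Here the third WT oocyte was above 2 of the cKO oocytes, and the log2 fold change of 0.57 did not pass (limma adjusted p = 0.316).

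**Figure D2:**
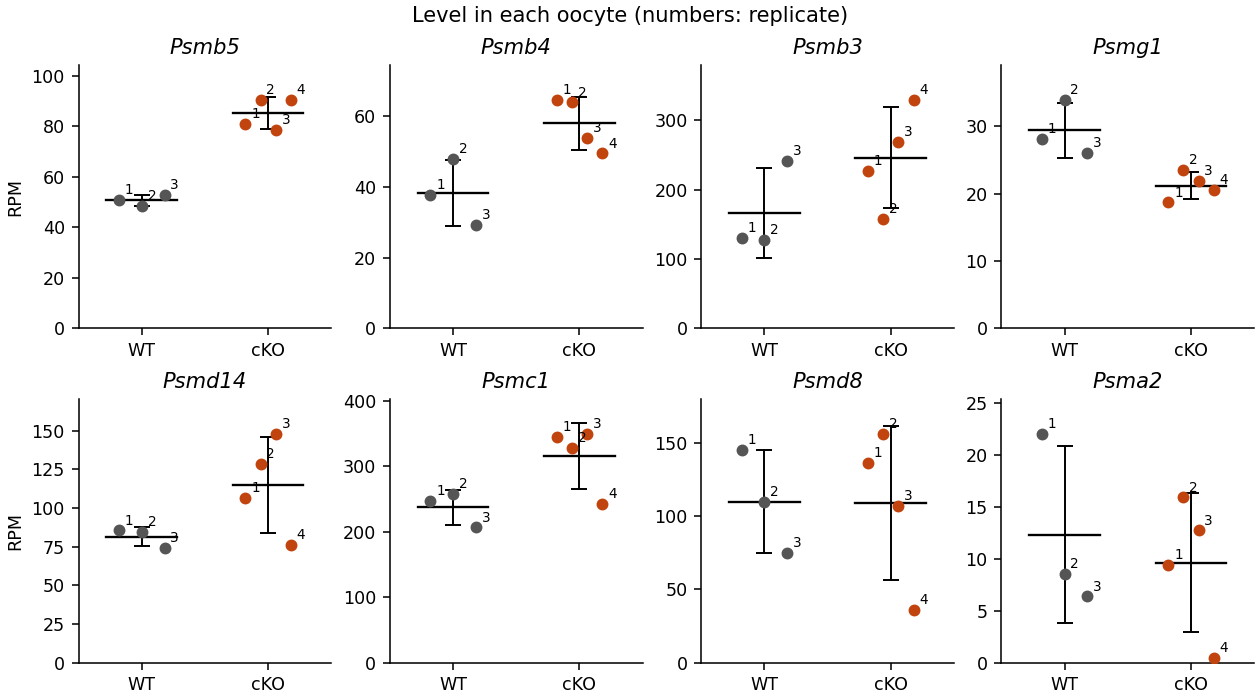
RPM of 8 proteasome genes in each oocyte (points, numbered by replicate) in WT (n = 3) and cKO (n = 4), with the mean (long bar) and SD (whiskers). The genotypes are apart for Psmb5, Psmb4 and Psmg1 and overlap for the other 5 genes, and cKO replicate 4 is the lowest cKO oocyte for Psmb4, Psmd14, Psmc1, Psmd8 and Psma2 and the highest for Psmb3.

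The remaining beta genes of the core did not differ beyond their spread. Psmb6, the catalytic subunit that cuts after acidic residues, measured 499, 416, 570 and 832 RPM in cKO and 398, 432 and 636 RPM in WT oocytes (log2 fold change 0.23, limma adjusted p = 0.707), and its log2 fold change was 0.038 without cKO replicate 4 and 0.43 without WT replicate 3. Psmb1, a structural subunit, had 575, 473, 679 and 999 RPM in cKO and 456, 564 and 831 RPM in WT oocytes (log2 fold change 0.13). Psmb2, which is also structural, had 505, 411, 566 and 791 RPM in cKO and 425, 449 and 704 RPM in WT oocytes (log2 fold change 0.11). In each of these the highest oocyte of its genotype was cKO replicate 4 or WT replicate 3. All 6 beta genes had a log2 fold change above 0, with a median of 0.40, although only 4 did after centring or without cKO replicate 4 or WT replicate 1. Their summed level was 1612 to 3093 RPM in cKO and 1498 to 2495 RPM in WT oocytes, which overlap. With libraries centred on the median transcript, the log2 fold changes of Psmb1 and Psmb2 were -0.02 and -0.05.

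Of the alpha genes matched by symbol, which form the outer rings, Psma7 had the highest level, 532, 487, 672 and 783 RPM in cKO and 510, 501 and 721 RPM in WT oocytes (log2 fold change 0.09, limma adjusted p = 0.876, and below 0 after centring). Psma1, Psma3 and Psma6 had log2 fold changes of 0.16, 0.02 and 0.31 and overlapped between the genotypes. The transcript named Psma2 stood apart, with 9.40, 15.9, 12.7 and 0.466 RPM in cKO and 22.0, 8.56 and 6.36 RPM in WT oocytes (log2 fold change -0.61, limma adjusted p = 0.712). Its 95% interval, from -2.27 to 1.05 on the log2 scale, was the widest of all members, and without cKO replicate 4 the log2 fold change was 0.19. This transcript begins 16921 bases after the RefSeq start of Psma2. The transcript that covers the start of Psma2 carries the symbol of a neighbour on the opposite strand, Mrpl32, and so fell outside the rule, and it measured 745, 610, 910 and 1277 RPM in cKO and 589, 668 and 1005 RPM in WT oocytes (log2 fold change 0.22, limma adjusted p = 0.743).

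None of the 5 ATPases of the 19S base was called. Psmc1, a subunit of the ATPase ring, measured 344, 327, 350 and 242 RPM in cKO and 247, 258 and 206 RPM in WT oocytes. Apart from cKO replicate 4, which lay among the WT oocytes, the cKO oocytes were above every WT oocyte, and the log2 fold change was 0.40 (limma adjusted p = 0.310). The transcript measured for Psmc1 begins 9589 bases before the RefSeq start of the gene. Psmc5, another subunit of the ring, measured 328, 288, 312 and 373 RPM in cKO and 326, 323 and 358 RPM in WT oocytes (log2 fold change -0.05, a sign that turned under 3 alternatives). Psmc3, Psmc4 and Psmc6 had log2 fold changes of 0.22, 0.11 and 0.04. The summed level of the 5 ATPases was 1240 ± 77.9 RPM in cKO (SD, n = 4) and 1124 ± 15.2 RPM in WT oocytes (SD, n = 3), and the genotypes overlapped.

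Among the 10 non-ATPase subunits the log2 fold change was highest for Psmd14, the deubiquitinase that removes the ubiquitin chain, with 107, 128, 148 and 76.3 RPM in cKO and 85.5, 84.8 and 74.2 RPM in WT oocytes. Again cKO replicate 4 lay among the WT oocytes while the other cKO oocytes were above them (log2 fold change 0.45, limma adjusted p = 0.328). Psmd8, a lid subunit, had 136, 156, 107 and 36.0 RPM in cKO and 145, 109 and 74.5 RPM in WT oocytes, a log2 fold change of -0.15 that was 0.31 without cKO replicate 4. The transcript measured for Psmd8 extends 33362 bases upstream of the RefSeq start of the gene. Psmd4, a receptor for ubiquitin chains, measured 299.8, 300.1, 259 and 240 RPM in cKO and 329, 294 and 275 RPM in WT oocytes (log2 fold change -0.13, limma adjusted p = 0.775). Psmd3 was low in all oocytes, at 2.38 to 6.26 RPM. The other 6, Psmd1, Psmd2, Psmd6, Psmd7, Psmd11 and Psmd12, had log2 fold changes from 0.02 to 0.22.

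Activators and the inhibitor of the core did not differ beyond their spread. Psme4, which encodes the PA200 activator, measured 76.2, 84.7, 88.8 and 84.5 RPM in cKO and 76.3, 87.6 and 67.1 RPM in WT oocytes (log2 fold change 0.12). Psme3, the nuclear PA28 gamma activator, measured 40.4, 51.5, 46.1 and 45.4 RPM in cKO and 39.8, 42.1 and 45.7 RPM in WT oocytes (log2 fold change 0.10, and below 0 after centring, as for Psme4). Both were nearly level across all 7 oocytes. Psme2, a component of the interferon-inducible PA28 activator, measured 29.0, 25.8, 39.2 and 46.3 RPM in cKO and 20.8, 37.5 and 32.3 RPM in WT oocytes (log2 fold change 0.21, limma adjusted p = 0.735). Without WT replicate 1 the log2 fold change of Psme2 was -0.026. Its partner Psme1 was barely detected, with 0.990, 1.57, 1.57 and 0.117 RPM in cKO and 0.324, 0 and 0 RPM in WT oocytes, and did not reach the expression limit. Psmf1, an inhibitor of the core, was among the more abundant members at 441, 508, 462 and 525 RPM in cKO and 497, 528 and 564 RPM in WT oocytes (log2 fold change -0.13, limma adjusted p = 0.761).

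Among the assembly factors, Psmg1 was the only tested member that was lower in every cKO oocyte than in any WT oocyte. This chaperone of the alpha ring measured 18.7, 23.6, 21.9 and 20.6 RPM in cKO and 28.1, 34.0 and 26.1 RPM in WT oocytes. The highest cKO oocyte was below the lowest WT oocyte, yet the log2 fold change of -0.45 with a standard error of 0.21 did not pass (limma adjusted p = 0.258). Psmd5, a chaperone of the 19S base, had 32.6, 48.3, 43.6 and 41.6 RPM in cKO and 28.2, 35.9 and 29.1 RPM in WT oocytes (log2 fold change 0.40, limma adjusted p = 0.331). Here 1 WT oocyte was above the lowest cKO oocyte. Psmd10 and Psmg4, the other chaperones tested among the genes matched by symbol, both had a log2 fold change of 0.19.

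Subunits of the proteasome forms known from other tissues had no reads or low levels. Psma8, the alpha subunit of the germ cell proteasome known from testis, and Psmb9, a catalytic subunit of the immunoproteasome, had no reads in any of the 7 libraries, which allows up to 0.350 RPM in the shallowest. The transcript measured for Psmb9 begins 3599 bases after the RefSeq start of the gene. Psmb11, the thymus-specific beta subunit, was at 2.87 to 5.01 RPM in cKO and 2.53 to 5.02 RPM in WT oocytes, and its transcript begins 4517 bases before the RefSeq start. The pseudogenes Psmb5-ps and Psmb6-ps did not exceed 0.350 RPM in any library.

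Median levels per transcript length differed between the parts of the complex more than between the genotypes, though the ranges of the parts overlapped. With the level divided by the length of the longest annotated transcript, the median of the 20S core genes in WT oocytes was 306 RPM per kb over 10 genes, leaving out Psma2, for which, as for Psmd8 and Psmb11, the measured transcript is not the annotated one. For the ATPases it was 149 RPM per kb (64.5 to 255) over 5 genes. For the non-ATPase subunits it was 46.4 RPM per kb (1.92 to 171) over 9 genes. The part of transcript length itself in these differences was not tested. The order within the core ran from Psmb2 and Psmb6, both at 612 RPM per kb, down to Psmb5 at 56.4 and Psmb4 at 32.3 RPM per kb in WT oocytes. The core genes for which the genotypes did not overlap were those with the lowest levels per length in the core. In cKO oocytes Psmb5 was at 94.7 RPM per kb, still below the core genes other than Psmb4.

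**Figure D3:**
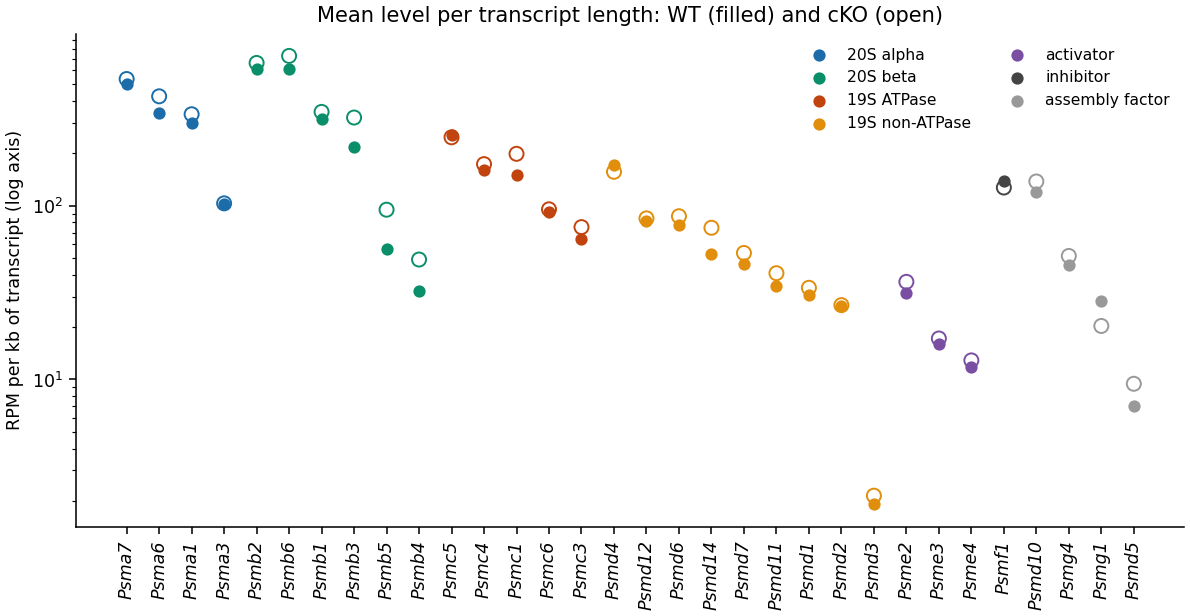
Mean level of the tested members, without Psma2, Psmd8 and Psmb11, per kb of the longest annotated transcript (log axis), WT (filled, n = 3) and cKO (open, n = 4), ordered within each role. The 20S genes span 612 to 32.3 RPM per kb in WT, with the highest median of the groups, Psmd3 is lowest of those plotted at 1.92 RPM per kb in WT, and the open and filled points are furthest apart for Psmb5.

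Within each genotype the core genes and the non-ATPase genes deviated in opposite directions in some libraries. Each library was compared, on the log2(RPM + 1) scale, with the mean of the other libraries of its genotype. The median over the 11 core genes was 0.49 above the other cKO oocytes in cKO replicate 4 and 0.51 above the other WT oocytes in WT replicate 3. It was 0.43 below in cKO replicate 2 and 0.40 below in WT replicate 1. The 10 non-ATPase genes went the other way, at -0.43 in cKO replicate 4, -0.19 in WT replicate 3, 0.36 in cKO replicate 2 and 0.12 in WT replicate 1, while the 5 ATPases stayed between -0.16 and 0.17 in all libraries. Over all transcripts tested the medians of these deviations lay between -0.07 and 0.09.

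The same libraries separated transcripts by length. Among transcripts of at least 16 RPM with a gene match, the 883 of up to 1500 bases had medians of 0.40 in cKO replicate 4 and 0.43 in WT replicate 3, the 1708 of 1500 to 3000 bases had medians of -0.37 and -0.29, and the 2648 over 3000 bases had medians of -0.25 and -0.22. Without Psma2, Psmd8 and Psmb11, whose measured transcripts are not the annotated ones, the core genes had a median length of 1100 bases (10 genes), the ATPases of 1591 (5 genes) and the non-ATPase subunits of 1955 bases (9 genes). Across the other 32 tested members, which are not independent of each other, Spearman's rho between deviation and transcript length was -0.26 in cKO replicate 4, -0.20 in WT replicate 3, 0.39 in cKO replicate 2 and 0.36 in WT replicate 1. It was 0.088, -0.30 and 0.058 in cKO replicates 1 and 3 and WT replicate 2. The part of transcript length in the fold changes was not tested. With these 2 libraries left out, the log2 fold change was 0.73 for Psmb5 (limma adjusted p = 0.0275), 0.50 for Psmb4 (limma adjusted p = 0.152) and 0.72 for Psmb3 (limma adjusted p = 0.0524), and none of the members was called.

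**Figure D4:**
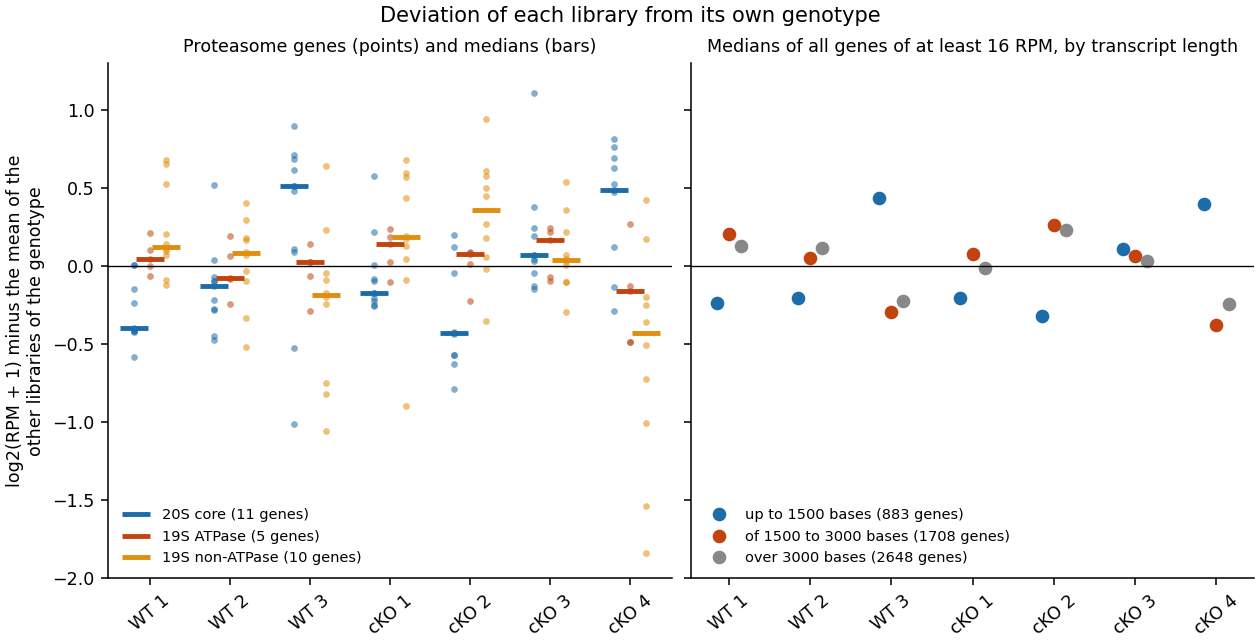
Deviation of each library from the mean of the other libraries of its genotype, on the log2(RPM + 1) scale: left, the 11 core and 15 regulatory particle genes tested (points) and group medians (bars), with 1 point, Psma2 in cKO replicate 4 at -3.19, below the axis; right, medians of transcripts of at least 16 RPM in 3 classes of transcript length. In WT 3 and cKO 4 the medians of the core genes and of the short transcripts are high and those of the non-ATPase genes and the longer transcripts are low, while single genes go the other way, among them Psmb4 at -0.53 and -0.29.

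None of the genes that work with the proteasome was called. Of 37 genes for ubiquitin receptors, shuttles, ubiquitin, its activating enzymes and regulators of proteasome genes, 29 were found in the table by symbol and all 29 were tested, with none higher and none lower, against 5.71% of all transcripts called, and a median log2 fold change of 0.09. Nfe2l1, a transcription factor that raises proteasome genes when the proteasome is impaired, measured 16.7 to 26.4 RPM in cKO and 24.7 to 31.4 RPM in WT oocytes (log2 fold change -0.42, limma adjusted p = 0.331). Its relative Nfe2l2 measured 4.89 to 25.04 RPM in cKO and 11.8 to 26.1 RPM in WT oocytes (log2 fold change -0.60, limma adjusted p = 0.504). Both overlapped between the genotypes. Pomp, the chaperone of beta ring assembly, measured 166, 161, 236 and 318 RPM in cKO and 152, 151 and 258 RPM in WT oocytes (log2 fold change 0.23, limma adjusted p = 0.732), with cKO replicate 4 and WT replicate 3 again highest. Of the 29, 2 did not overlap between the genotypes, against 20.3% of all transcripts: Txnl1, a thioredoxin-like protein bound to the 19S particle, with higher levels in cKO oocytes (log2 fold change 0.40, limma adjusted p = 0.297), and Uba1, the main ubiquitin-activating enzyme, with lower levels (log2 fold change -0.31, limma adjusted p = 0.384). Ubxn1 and Zfand5, which bind ubiquitin or its adaptors, had log2 fold changes of 0.47 and 0.33, Bag6, a chaperone for misfolded proteins, 0.30, and Uba6, a second activating enzyme, -0.47, with overlapping libraries in each case.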

How the data were processed

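Single GV oocytes were lysed, and their cDNA was amplified with a SMARTer kit for 12 cycles and made into libraries with the NEBNext kit. The authors trimmed the reads, mapped them to GRCm38 with Hisat and removed mappings of low quality, which affects reads that match several copies of a gene. Reads were quantified in SeqMonk over oocyte transcripts defined earlier, with isoforms merged. The submitters' processing notes also name bcl2fastq 1.8.4 and featureCounts 1.4.4. Whether strand was used in counting is not given in the sources used here, so reads of overlapping transcripts on opposite strands cannot be told apart; Psma3, Psma7 and Psme1 overlap 1 other transcript each.

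The authors deposited log2 RPM values, for which library size was the number of reads mapped and a count of 0 was entered as 0.9. The step between low values gave whole reads for 100% of the values, and these reads gave the depth and the share outside transcripts. The column of each library was matched to a sample by its title, and no library was left out.

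RPM values were tested as log2(RPM + 1) with limma 3.58.1 (R 4.3.3), with an intensity trend, over transcripts of at least 1 RPM in at least 3 libraries. P-values were adjusted by the Benjamini-Hochberg method over all 18179 transcripts. The study used a model for counts; values deposited on a log scale were tested on that scale, and fold changes of low genes are understated by the added 1 RPM. The scripts were tested on simulated data. The members, gene lists and alternatives were chosen with earlier results of these data known. Members named with values were those called, those without overlap, the 6 highest and 6 lowest fold changes, the catalytic, immunoproteasome, activator and germ cell subunits, Psmd14 and the 3 most abundant, and, of the partners, Nfe2l1, Nfe2l2, Pomp and the 8 of largest change. Transcripts that carry another gene's symbol were matched by position to GENCODE M21 (GRCm38), by an overlap of at least 0.5 of the union of both spans. Lengths are those of the longest GENCODE transcript, used only for members whose transcript met the same overlap, and promoters are from RefSeq GRCm38.p6. A comparison of protein sequences was not made. Alternatives covered the pseudocount, the filter, the scaling, voom on the recovered reads, the replicate block, the rows used per gene, and each library left out.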

Additional observations from a re-analysis of the deposited data

Results flagged for a closer look

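Of 35 proteasome genes examined for an oocyte far from the other 3 of the cKO group, 1 was set apart, where chance sets apart about 2. For Psmb11, the gap between cKO replicate 4, at 5.01 RPM, and the next oocyte was 0.840 of the range of the cKO group, above the critical value for 4 samples. The WT oocytes ranged from 2.53 to 5.02 RPM, so the value lay within the range of the other genotype.

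Psmg2, the chaperone that pairs with the Psmg1 protein in alpha ring assembly, had a signal in a transcript that the choice by symbol did not use, because the table gives that transcript the symbol Cep76 of the opposite strand. It measured 10.1, 8.98, 13.7 and 6.99 RPM in cKO and 4.21, 2.54 and 4.21 RPM in WT oocytes, without overlap. The log2 fold change was 1.22 with a 95% interval from 0.56 to 1.88, and limma called it higher (adjusted p = 0.0390). The transcript was found after the values were seen. Another transcript covers 4.92% of its span, at a mean of 4.96 RPM, and its part in the value was not tested. The adjusted p ran from 0.0117 to 0.165 over 20 alternatives and was under 0.05 in 11 of them, but in only 1 of the 7 that leave out a single oocyte, that of cKO replicate 4. Over the same 20 alternatives the log2 fold change ran from 0.77 to 1.46, so the 2-fold limit of a call was not met in all of them.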

How the results depend on the processing

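The count of 0 proteasome genes called in either direction was unchanged under the alternatives run with the members chosen by symbol and the fold limit. Without that limit 1 gene was higher, and with the genes that carry another symbol 1 was higher and 3 had an adjusted p under 0.05 without a fold limit. The 1 gene with an adjusted p under 0.05 was lost, to 0, with centring on the median transcript, quantile normalisation, limma without an intensity trend, voom on recovered reads, and in every fit without a single oocyte (0 to 0). The median log2 fold change of the members was -0.032 with centring, 0.20 when scaled to reads within transcripts, 0.16 with the genes of another symbol, and 0.10 to 0.18 with single oocytes left out, where the highest was without WT replicate 3. Centring made the log2 fold changes of Psma7, Psmb1, Psmb2, Psme3 and Psme4 -0.061, -0.024, -0.048, -0.052 and -0.033. Psmc5 was 0.038 with quantile normalisation and 0.031 when scaled to reads within transcripts. Leaving out single oocytes gave ranges of -0.98 to 0.19 for Psma2, -0.027 to 0.27 for Psma7, -0.071 to 0.37 for Psmb1, -0.065 to 0.34 for Psmb2, -0.12 to 0.0074 for Psmc5, -0.40 to 0.31 for Psmd8 and -0.026 to 0.38 for Psme2, and with cKO replicate 4 and WT replicate 3 both left out, a choice made after seeing the data, Psmd8 was 0.058. The causes were not tested. Over all transcripts, centring turned 683 higher and 355 lower into 458 and 531.

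Deviations of same-numbered oocytes correlated at 0.192, 0.295 and -0.129. Oocytes with different numbers were not compared, so these values do not show whether the numbers pair the oocytes. With the replicate block, in which cKO replicate 4 has no partner and drops out, Psma2, Psma7, Psmb1, Psmb2 and Psmd8 were at 0.19, -0.027, -0.071, -0.065 and 0.31, 924 transcripts were higher and 479 lower, and no proteasome gene was called.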

Other observations

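Of 50 protein-coding genes that the symbol rule could name in GENCODE M21, 12 were outside the 40 genes reported, and 9 of those, with the second Psma2 transcript, were found by position under another symbol; these 10 transcripts were looked up after the data had been seen. Psmc3ip is among the 12 genes but is left out of the 10 transcripts, since it encodes a recombination protein and not a subunit. Of the 10, 9 were tested, all 9 had a log2 fold change above 0 (median 0.23, against 0.12 over all transcripts tested), and the genotypes did not overlap for 4, against 20.3% of all transcripts. They fill in the complex: Psma4 and Psma5 of the alpha ring had log2 fold changes of 0.22 and 0.17 and overlapped between the genotypes. Psmb7, the catalytic subunit that cuts after basic residues, measured 446, 395, 514 and 653 RPM in cKO and 371, 404 and 545 RPM in WT oocytes, a log2 fold change of 0.18. Of the catalytic subunits Psmb5, Psmb6 and Psmb7, the genotypes did not overlap only for Psmb5.

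Psmd9, a chaperone of 19S base assembly, measured 161, 178, 139 and 127 RPM in cKO and 98.4, 80.8 and 71.9 RPM in WT oocytes. Its log2 fold change of 0.84 had an adjusted p of 0.0429 by limma and did not reach 2-fold, and the adjusted p lay between 0.0122 and 0.164 over 20 alternatives, under 0.05 in 10 of them and in 1 of the 7 that leave out a single oocyte, that of cKO replicate 4. Its transcript is listed next to that of Setd1b on chromosome 5, and another transcript covers 12.6% of its span, at a mean of 10.5 RPM. The part of either in the value of Psmd9 was not tested. Psmd13, a lid subunit, measured 7.72, 10.5, 10.9 and 7.34 RPM in cKO and 6.80, 4.55 and 3.37 RPM in WT oocytes (log2 fold change 0.80, limma adjusted p = 0.139). Psmc2, an ATPase, measured 395, 369, 402 and 337 RPM in cKO and 299.1, 313 and 276 RPM in WT oocytes, without overlap (log2 fold change 0.34). Psmg3, another assembly chaperone, overlapped between the genotypes (log2 fold change 0.23). Psmb10 of the immunoproteasome was at or under 2.15 RPM in every oocyte and was not tested.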
